A study of Mus musculus with 4 samples.

Results

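Colonic interstitial cells of Cajal (ICC) of leptin-deficient ob/ob mice were compared with jejunal ICC of the same genotype for every microRNA (miRNA) entry in the deposited table. The comparison uses 2 of the study's 4 libraries, the ob/ob colon library and the ob/ob jejunum library. The table lists 982 entries, of which 810 had at least 1 count in either ob/ob library and 172 had none in both. Ratios are given for the 322 entries that averaged at least 10 counts per 1000000 miRNA counts (CPM) over the 4 libraries. These entries held 99.8% of all miRNA counts in ob/ob colon and 99.8% in ob/ob jejunum. The other 660 had at most 6 counts in ob/ob colon and at most 9 in ob/ob jejunum.

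The ob/ob mice carried Lepob/ob;KitcopGFP/+, and the labels call them diabetic. The other 2 libraries, from colon and jejunum of Lepob/+;KitcopGFP/+ mice (ob/+ here, healthy and wild type in the labels), serve for comparison. All mice were C57BL/6, 11 to 20 weeks old, and all carried the copGFP reporter in 1 allele of Kit, so no library came from mice without the reporter. GFP-positive cells were sorted by flow cytometry from dissociated whole colon or whole jejunum. The RNA of 15 was pooled for each library, and the labels do not say whether 15 means mice or samples. Each tissue of each genotype is therefore 1 pooled library, no spread between ob/ob animals can be given, and the 95% intervals below cover counting error only.

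ICC are the electrical pacemakers of the gut muscle and relay signals from enteric nerves to smooth muscle; they depend on signalling through the receptor Kit, which mast cells also carry. MiRNAs are short RNAs cut from hairpin precursors. One arm of the hairpin, the 5p or the 3p arm, is usually the more abundant, and bases 2 to 8 of the arm, the seed, pair with target mRNAs. Some miRNAs mark position along the body axis because they lie within the Hox gene clusters, and others mark a tissue, such as miR-143 and miR-145 in smooth muscle.

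The mature sequences behind the main differences are given from RefSeq on GRCm38.p6, 5′ to 3′, with the seed in capitals. The first pair is shown because its 2 members were lower in ob/ob colon by the same ratio, and the second because it was the Hox pair on the opposite side.
miR-10a-5p: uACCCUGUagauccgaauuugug
miR-10b-5p: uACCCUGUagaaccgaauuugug
miR-196a-5p: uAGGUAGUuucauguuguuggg
miR-196b-5p: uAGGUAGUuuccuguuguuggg
let-7f-5p: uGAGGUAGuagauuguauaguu
let-7a-5p: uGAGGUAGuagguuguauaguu
let-7b-5p: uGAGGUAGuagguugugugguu
let-7i-5p: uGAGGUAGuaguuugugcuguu
miR-181a-5p: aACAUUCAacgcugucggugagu
miR-181b-5p: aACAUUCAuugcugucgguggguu
miR-181d-5p: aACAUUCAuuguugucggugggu
miR-221-5p: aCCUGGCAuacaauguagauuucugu
miR-221-3p: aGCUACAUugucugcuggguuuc
miR-365-3p: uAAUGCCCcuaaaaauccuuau
The let-7 members are shown because arms with 1 seed lay on both sides of equality, miR-181 because 3 arms with its seed were higher in colon, miR-221 because its arms differed, and miR-365-3p because it was lower in colon in both genotypes.

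Counted from 1 at the 5′ end, miR-10a-5p and miR-10b-5p differ by U12A, miR-196a-5p and miR-196b-5p by A12C, let-7a-5p and let-7f-5p by G12A, and miR-181b-5p and miR-181d-5p by C12U. The deposited counts are partly fractional, so how reads were divided between such near-identical miRNAs is uncertain. On GRCm38.p6, miR-10b-5p lies at chr2:74726074-74726096 on the plus strand in introns of Hoxd3 and Hoxd4. miR-10a-5p lies at chr11:96317186-96317208 on the plus strand, in no annotated host gene. miR-196b-5p lies at chr6:52230129-52230150 on the minus strand in an exon of Hoxa9, and 1 of the 2 copies of miR-196a-5p at chr15:102973365-102973386 on the plus strand in an intron of Hoxc5. A RefSeq mature sequence was found for 263 of the 322 entries.

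The ob/ob colon library held 267077 miRNA counts and the ob/ob jejunum library 433201, against 716476 in ob/+ colon and 466335 in ob/+ jejunum. One count was worth 3.15 CPM in ob/ob colon and 2.37 CPM in ob/ob jejunum after scaling. An entry without counts could still reach 9.45 CPM in ob/ob colon and 7.12 CPM in ob/ob jejunum, a floor of 3 counts. MiRNA counts made up 10.6% of mappable reads in ob/ob colon (exact binomial 95% interval 10.6 to 10.7) and 12.3% in ob/ob jejunum (12.3 to 12.4). In ob/+ they made up more, 26.3% in colon and 22.5% in jejunum. Reads under 15 nt were 41.8% of raw reads in ob/ob colon and 23.6% in ob/ob jejunum, against 41.0% in ob/+ colon and 36.3% in ob/+ jejunum. Reads without adapter were 36.0% of raw reads in ob/ob colon and 58.7% in ob/ob jejunum, against 35.9% in ob/+ colon and 48.0% in ob/+ jejunum. The part of these library differences in the ratios was not tested. In RNA from pooled cells, fewer cells of a type and less RNA per cell cannot be told apart.

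The abundant miRNAs of colonic and jejunal ob/ob ICC were close in level. Among the 148 entries at 100 CPM or more in either ob/ob library, 0 differed 2-fold (1 with library totals alone, miR-433-3p at 1.01), and for 126 the whole counting interval lay within 2-fold. Their log2 ratios of colon over jejunum ran from -0.91 (1.88-fold lower in colon) to 0.73 (1.66-fold higher), with an SD of 0.32 across entries. The same ratio in the ob/+ pair had an SD of 0.49 over these 148, which were chosen by ob/ob level, so some had few ob/+ counts. The log2 CPM values of the 2 ob/ob libraries correlated across the 148 entries (Pearson r = 0.992), a description of 2 libraries in which entries are not independent.

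The 5 most abundant entries of ob/ob colon were also abundant in ob/ob jejunum. miR-145a-5p, a smooth muscle miRNA, stood at 135164 CPM in ob/ob colon and 195483 CPM in ob/ob jejunum. miR-143-3p, cut from the same transcript, stood at 100129 CPM in ob/ob colon and 139680 CPM in ob/ob jejunum. miR-10a-5p stood at 86053 CPM in ob/ob colon and 132879 CPM in ob/ob jejunum. miR-125b-5p, a relative of worm lin-4, was nearly level, at 66291 CPM in ob/ob colon and 64239 CPM in ob/ob jejunum, and let-7c-5p stood at 51252 CPM in ob/ob colon and 52645 CPM in ob/ob jejunum.

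**Figure D1:**
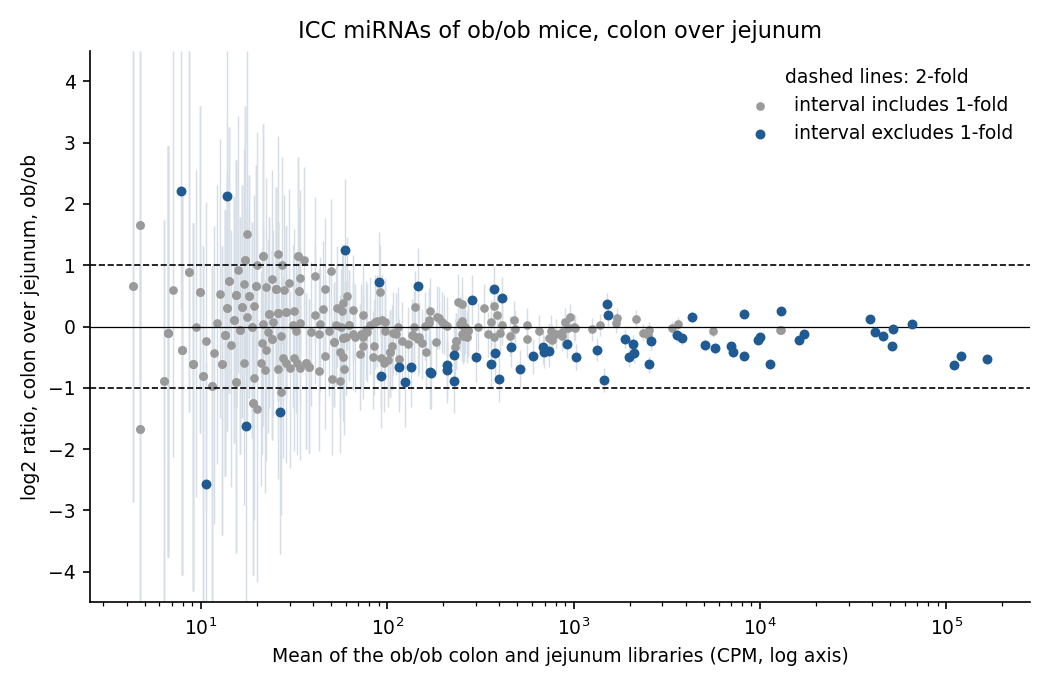
Log2 ratio of ob/ob colon over ob/ob jejunum (y) against the mean of both libraries in CPM (x, log axis) for the 322 entries, with 95% counting intervals as vertical lines, clipped at the frame. Points beyond the dashed 2-fold lines lie below 100 CPM, and from there on every point lies between -0.91 and 0.73.

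Of the 322 entries, 16 (4.97%) were at least 2-fold higher in ob/ob colon and 9 (2.80%) at least 2-fold lower. These rested on few reads: the highest count among the 25 was 27, or 85.0 CPM. The interval excluded equality for 3 of the 16 and 3 of the 9, and for 0 of the 322 did the whole interval lie beyond 2-fold in either direction. For 137 entries the whole interval lay within 2-fold, and for the other 185 it reached 2-fold or more, so a difference of that size could not be seen or excluded at this depth. By mean abundance in ob/ob, 21 of the 25 were under 30 CPM and the other 4 between 30 and 100 CPM.

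miR-196a-5p had the most reads of the 25, with 27 counts in ob/ob colon and 14 in ob/ob jejunum. Its log2 ratio was 1.25 (interval 0.37 to 2.40). let-7f-1-3p, the minor arm of a let-7 hairpin, had 8 counts in ob/ob colon and 1 in ob/ob jejunum (2.13, interval 0.51 to 8.88). miR-467b-5p, from the repeat-rich Sfmbt2 cluster, had 5 counts in ob/ob colon and 0 in ob/ob jejunum. Against a floor of 3 counts in the jejunum library that is 2.21-fold higher, but the lower limit of its log2 interval was 0.28. Both of these low entries were also at least 2-fold higher in ob/+ colon, with 22 counts against 6 in ob/+ jejunum for let-7f-1-3p and 12 against 3 for miR-467b-5p. Both passed the abundance filter mainly through colon, at 25.2 CPM in ob/ob and 33.4 CPM in ob/+ for let-7f-1-3p. For miR-467b-5p these were 15.7 CPM and 18.2 CPM. Being higher in colon in both genotypes is therefore not independent of the filter.

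On the lower side, miR-182-5p of the sensory and epithelial miR-183 cluster had 0 counts in ob/ob colon and 9 in ob/ob jejunum. Against the colon floor that is 2.26-fold lower, but the upper limit of its log2 interval was -0.57. miR-1843b-3p had 2 counts in ob/ob colon and 12 in ob/ob jejunum (-1.62, interval -5.38 to -0.01), and miR-703 had 4 in ob/ob colon and 17 in ob/ob jejunum (-1.40, interval -3.71 to -0.06). Neither of these 2 intervals excluded equality under every scaling described below. miR-574-5p and miR-96-5p each had 0 counts in ob/ob colon against 4 in ob/ob jejunum, which is no difference once the colon floor is applied. The remaining 4, miR-494-3p, miR-486-3p, miR-132-5p and miR-6538, had 3 to 5 counts in ob/ob colon and 12 to 16 in ob/ob jejunum, with intervals that included equality.

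All 148 entries of 100 CPM or more fell short of the 2-fold threshold. Nearest to it on the lower side were miR-221-5p (-0.91), miR-1839-5p (-0.90) and miR-365-3p (-0.87), and on the higher side miR-433-3p (0.73), miR-129-5p (0.67) and miR-181d-5p (0.62).

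Small shifts of abundant entries depended on the scaling. With trimmed mean of M-values (TMM) factors the median log2 ratio of the 322 was -0.09, with 127 above 0 and 195 below, and intervals excluded equality on the higher side for 15 (4.66%) and on the lower side for 52 (16.1%). With library totals alone the median moved by 0.27 on the log2 scale and the counts became 62 higher and 14 lower. With the authors' factors it moved by 0.12, with 34 higher and 32 lower. Under 3 further scalings 22 to 29 were higher and 40 to 46 lower. Intervals excluded equality under all 6 scalings for 15 entries on the higher side and 14 on the lower side, 12 and 13 of them at 100 CPM or more. Apart from mir-6240 and mir-6236, these are described next with relatives from the same lists, each with its ratio under TMM. The hairpin-named mir-6240 had 571 counts in ob/ob colon and 1027 in ob/ob jejunum (-0.44, and -0.66 in ob/+). The hairpin-named mir-6236 had 514 counts in ob/ob colon and 600 in ob/ob jejunum (0.18, and -0.15 in ob/+).

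Muscle miRNAs were lower in ob/ob colon. All 4 tested arms of miR-143 and miR-145a, which keep smooth muscle contractile, had ratios below 0, with a median of -0.51 against -0.09 for all 322; miR-145a-3p turned to 0.08 with library totals alone. miR-145a-5p had 42924 counts in ob/ob colon and 82400 in ob/ob jejunum, against 66218 in ob/+ colon and 57657 in ob/+ jejunum, with ratios of -0.53 (interval -0.55 to -0.52) in ob/ob and -0.39 in ob/+. miR-143-3p had 31798 counts in ob/ob colon and 58878 in ob/ob jejunum, against 69170 in ob/+ colon and 49580 in ob/+ jejunum (-0.48 in ob/ob, -0.11 in ob/+). The other arm, miR-143-5p, was lower in ob/ob colon (638 counts, against 1297 in ob/ob jejunum, -0.61) and higher in ob/+ colon (1176 counts, against 617 in ob/+ jejunum, 0.34).

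Among striated muscle miRNAs, miR-133a-3p had 125 counts in ob/ob colon and 268 in ob/ob jejunum, against 185 in ob/+ colon and 156 in ob/+ jejunum. Its ratio was -0.69 in ob/ob (interval -1.01 to -0.38) and -0.34 in ob/+. Its cluster partner miR-1a-3p had 9 counts in ob/ob colon and 20 in ob/ob jejunum, an interval that included equality (-0.66, interval -2.06 to 0.46). The other 5 entries of the striated list were under the abundance filter, with miR-206-3p at 0 in both ob/ob libraries. The smooth muscle list summed to 246396 CPM in ob/ob colon and 348776 CPM in ob/ob jejunum, against 213600 CPM in ob/+ colon and 252188 CPM in ob/+ jejunum.

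The miR-10 pair, encoded near the Hox4 genes, was lower in ob/ob colon. miR-10a-5p had 27328 counts in ob/ob colon and 56011 in ob/ob jejunum, against 66200 in ob/+ colon and 41530 in ob/+ jejunum. Its log2 ratio was -0.63 in ob/ob (interval -0.65 to -0.61; -0.63 to -0.34 over the 6 scalings) and 0.08 in ob/+. miR-10b-5p had 2852 counts in ob/ob colon and 5810 in ob/ob jejunum, against 113432 in ob/+ colon and 70721 in ob/+ jejunum, with ratios of -0.62 (interval -0.68 to -0.55) in ob/ob and 0.09 in ob/+. The 2 sequences share the seed ACCCUGU and, with U12A the difference between them, may share reads. The opposite arm, miR-10a-3p, had 41 counts in ob/ob colon and 60 in ob/ob jejunum (-0.14, interval -0.75 to 0.46).

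The other Hox-encoded arms lay on both sides. miR-196a-5p, described above, had 27 counts in ob/ob colon and 14 in ob/ob jejunum, against 416 in ob/+ colon and 365 in ob/+ jejunum, where its ratio was -0.40 (interval -0.61 to -0.19). miR-196b-5p, from the posterior Hoxa cluster, had 10 counts in ob/ob colon and 5 in ob/ob jejunum, against 1827 in ob/+ colon and 1036 in ob/+ jejunum. Its ratio was 1.14 in ob/ob (interval -0.27 to 3.31) and 0.23 in ob/+. miR-615-3p, from the Hoxc cluster, had 28 counts in ob/ob colon and 60 in ob/ob jejunum (-0.66, interval -1.39 to -0.02), against 15 in ob/+ colon and 4 in ob/+ jejunum. Its ob/ob interval did not exclude equality under all 6 scalings. Of the 7 Hox-encoded arms tested, 3 had ratios above 0 and 4 below; the median was -0.14, or 0.14 with library totals alone, and 0.23 in ob/+.

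miR-365-3p, encoded beside members of the miR-193 family, was lower in colon in both genotypes. It had 325 counts in ob/ob colon and 789 in ob/ob jejunum, against 603 in ob/+ colon and 655 in ob/+ jejunum. Its log2 ratio was -0.87 in ob/ob (interval -1.06 to -0.68) and -0.70 in ob/+. Another 2 entries were lower in ob/ob colon with ratios above 0 in ob/+: miR-1839-5p had 50 counts in ob/ob colon and 125 in ob/ob jejunum (-0.90; 0.15 in ob/+), and miR-3535 had 90 in ob/ob colon and 217 in ob/ob jejunum (-0.85; 0.24 in ob/+). The entry named after the hairpin, mir-3535, went the other way, with 153 counts in ob/ob colon and 147 in ob/ob jejunum (0.46, interval 0.13 to 0.80).

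Members of 2 families with shared seeds also had ratios below 0. miR-146a-5p, an NF-kappaB-induced brake on innate immune signalling, had 522 counts in ob/ob colon and 980 in ob/ob jejunum, against 702 in ob/+ colon and 410 in ob/+ jejunum (-0.50 in ob/ob, 0.19 in ob/+). Its relative miR-146b-5p had 40 counts in ob/ob colon and 90 in ob/ob jejunum (-0.74, interval -1.34 to -0.21; -0.23 in ob/+), but its interval did not exclude equality with library totals alone. In the miR-99/100 family, which is encoded in clusters with let-7 and miR-125, miR-100-5p had 2177 counts in ob/ob colon and 4029 in ob/ob jejunum (-0.48), and miR-99b-5p had 1960 in ob/ob colon and 3458 in ob/ob jejunum (-0.41). The third member with the seed, miR-99a-5p, had -0.30, or -0.02 with library totals alone. Summed over the seed ACCCGUA the ratio was -0.41 in ob/ob and -0.12 in ob/+.

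All 4 tested arms of miR-148a, miR-148b and miR-152, whose 3p arms share a seed and target the DNA methyltransferase Dnmt1, had ratios below 0, with a median of -0.54, or -0.26 with library totals alone. miR-148a-3p had 161 counts in ob/ob colon and 299 in ob/ob jejunum, and miR-148b-3p had 90 in ob/ob colon and 183 in ob/ob jejunum. In ob/+ the median was -0.02. The 3 tested arms of the activity-induced miR-132 and miR-212 also had ratios below 0 (median -0.86), on at most 35 counts, and 0 of their intervals excluded equality.

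**Figure D2:**
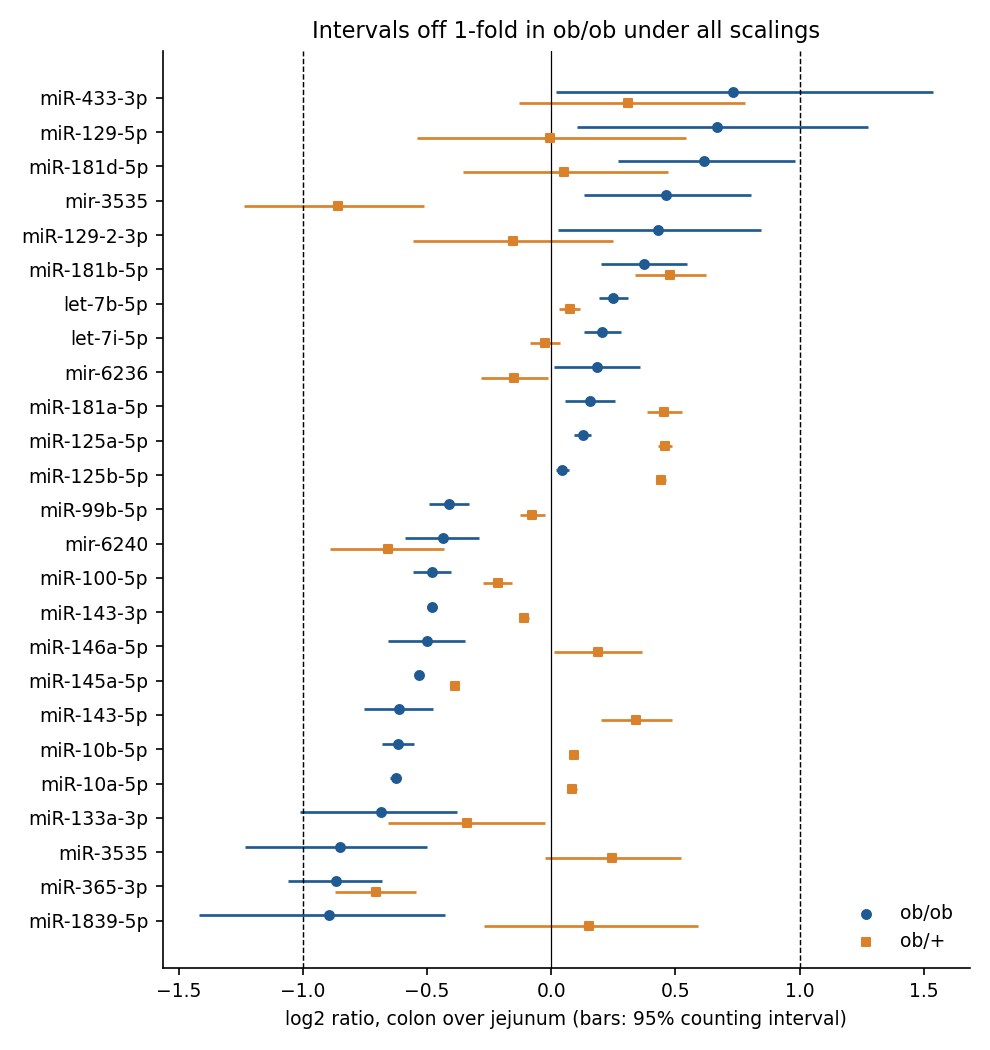
Log2 ratio of colon over jejunum (x) with 95% counting intervals for the 25 entries at 100 CPM or more whose interval excluded equality in ob/ob under all 6 scalings, with ob/ob as circles and ob/+ as squares; dashed lines mark 2-fold. miR-365-3p lies left of 0 in both genotypes, while the miR-10 pair lies at -0.63 and -0.62 in ob/ob and at 0.08 and 0.09 in ob/+.

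On the higher side, the miR-181 family, which tunes receptor signalling in lymphocytes, held 3 of the 12 abundant entries. miR-181a-5p had 1448 counts in ob/ob colon and 1724 in ob/ob jejunum, against 5158 in ob/+ colon and 2501 in ob/+ jejunum (0.16 in ob/ob, 0.46 in ob/+). miR-181b-5p had 543 counts in ob/ob colon and 556 in ob/ob jejunum, against 1238 in ob/+ colon and 590 in ob/+ jejunum (0.37 in ob/ob, 0.48 in ob/+). miR-181d-5p, with C12U the difference from miR-181b-5p, had 144 counts in ob/ob colon and 124 in ob/ob jejunum (0.62, interval 0.27 to 0.98), against 128 in ob/+ colon and 82 in ob/+ jejunum (0.05). Summed over the seed ACAUUCA the ratio was 0.24 in ob/ob (interval 0.15 to 0.32) and 0.45 in ob/+. The passenger arm miR-181a-1-3p, at 9 counts in ob/ob colon and 19 in ob/ob jejunum, was among the 2 of 6 tested arms below 0.

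The let-7 guide arms, which promote differentiation and share the seed GAGGUAG, spread around equality. let-7b-5p had 4450 counts in ob/ob colon and 4966 in ob/ob jejunum (0.25, interval 0.19 to 0.31), and let-7i-5p had 2800 in ob/ob colon and 3221 in ob/ob jejunum (0.21, interval 0.13 to 0.28). let-7f-5p, at 14530 counts in ob/ob colon and 23977 in ob/ob jejunum, had a ratio of -0.31, or -0.02 with library totals alone. let-7g-5p, at 4767 counts in ob/ob colon and 7330 in ob/ob jejunum, had a ratio of -0.21, or 0.08 with library totals alone. In ob/+ the ratios were -0.33 for let-7f-5p, -0.34 for let-7g-5p, 0.07 for let-7b-5p and -0.03 for let-7i-5p. The 9 arms with this seed summed to 195047 CPM in ob/ob colon and 211954 CPM in ob/ob jejunum (-0.12; -0.14 in ob/+). The spread between members, from -0.31 to 0.25, was wider than any interval among let-7b, let-7i, let-7f and let-7g.

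miR-125a-5p had 12959 counts in ob/ob colon and 15748 in ob/ob jejunum (0.13), and miR-125b-5p had 21052 in ob/ob colon and 27078 in ob/ob jejunum (0.05). In ob/+ both were higher in colon by more (0.46 and 0.44), and neither difference between genotypes was tested. miR-129-5p (0.67) and miR-129-2-3p (0.43), arms of neuronal miRNAs, and miR-433-3p (0.73), from the imprinted Dlk1-Dio3 region, completed the mature arms on this side. miR-433-3p had 36 counts in ob/ob colon and 28 in ob/ob jejunum, and its ratio in ob/+ was 0.31. In ob/+ the ratio of miR-129-2-3p was -0.15 (interval -0.56 to 0.25), and miR-129-5p, at 75 counts in ob/+ colon and 50 in ob/+ jejunum, had an interval of -0.54 to 0.54 around equality.

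The share of the 5p arm among the reads of both arms of a hairpin needs no scaling between libraries. It was taken for the 23 hairpins in which each arm had at least 20 counts in at least 1 ob/ob library. For 2 of them the interval of the odds ratio excluded equality, both with less 5p arm in ob/ob colon. For miR-221, known to repress Kit, miR-221-5p had 27 counts and miR-221-3p 117 in ob/ob colon, against 69 and 125 in ob/ob jejunum. The 5p share was 18.8% in ob/ob colon and 35.6% in ob/ob jejunum (log2 odds ratio -1.25, interval -2.05 to -0.48), but 22.9% in ob/+ colon and 18.02% in ob/+ jejunum (0.44). For miR-145a the 5p share was 93.7% in ob/ob colon and 94.9% in ob/ob jejunum (-0.32), and 94.1% in ob/+ colon and 95.6% in ob/+ jejunum (-0.44). In 14 of the 23 hairpins both arms had ratios of the same sign.

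The list of Kit-targeting miRNAs takes both arms of each hairpin, whether or not an arm targets Kit, and miR-221-5p and miR-221-3p have different seeds. Its 6 tested arms ran from -0.91 for miR-221-5p to 0.66 for miR-193b-3p, with 3 above and 3 below 0. Summed over the seed GCUACAU of miR-221-3p and miR-222-3p the ratio was 0.24 in ob/ob (interval -0.06 to 0.55) and 0.32 in ob/+. The median of the 6 arms was 0.02, or 0.28 with library totals alone. miR-221-3p had a ratio of 0.31 (interval -0.06 to 0.69). miR-222-3p had 55 counts in ob/ob colon and 68 in ob/ob jejunum (0.10), against 481 in ob/+ colon and 204 in ob/+ jejunum (0.64). miR-218-5p had 22 counts in ob/ob colon and 32 in ob/ob jejunum (-0.12).

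Marker lists of cell types other than smooth muscle had far lower sums than the smooth muscle list in both ob/ob libraries. Kit mRNA was not measured and no miRNA list defines ICC, so the cell type rests on the labels' sort. The gut epithelium list summed to 299 CPM in ob/ob colon and 372 CPM in ob/ob jejunum, against 921 CPM in ob/+ colon and 2122 CPM in ob/+ jejunum. Of its 16 entries 8 were at 0 in ob/ob colon and 5 in ob/ob jejunum, miR-141-3p and miR-429-3p in both. miR-200b-3p, an epithelial identity miRNA, had 12 counts in ob/ob colon and 9 in ob/ob jejunum, against 180 in ob/+ colon and 302 in ob/+ jejunum (0.71 in ob/ob, interval -0.55 to 2.25; -1.32 in ob/+). miR-215-5p, a small intestinal epithelial miRNA, had 21 counts in ob/ob colon and 50 in ob/ob jejunum (-0.80, interval -1.65 to -0.08), but its interval did not exclude equality under all 6 scalings. In ob/+ it had 48 counts in colon and 92 in jejunum (-1.47). The list's 6 tested arms had a median of -0.10 in ob/ob, or 0.14 with library totals alone, and -1.20 in ob/+.

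The miR-183 cluster summed to 6.30 CPM in ob/ob colon and 37.96 CPM in ob/ob jejunum, against 126 CPM in ob/+ colon and 402 CPM in ob/+ jejunum. Its median ratio was -1.67 in ob/ob, or -0.11 once the members without counts take their bound; in ob/+ it was -2.01. Leukocyte markers summed to 1090 CPM in ob/ob colon and 1450 CPM in ob/ob jejunum, against 721 CPM in ob/+ colon and 787 CPM in ob/+ jejunum. miR-342-3p, carried by the Evl gene, had 271 counts in ob/ob colon and 507 in ob/ob jejunum and made up most of the ob/ob sums (-0.49, interval -0.71 to -0.28). Its interval did not exclude equality under all 6 scalings. miR-150-5p, of mature lymphocytes, had 15 counts in ob/ob colon and 8 in ob/ob jejunum (1.14, interval -0.01 to 2.76). The part of these marker differences in the other ratios was not tested.

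Fibroblast markers summed to 888 CPM in ob/ob colon and 963 CPM in ob/ob jejunum, against 5001 CPM in ob/+ colon and 4812 CPM in ob/+ jejunum. The erythroid list was carried by miR-486-5p, with 556 counts in ob/ob colon and 846 in ob/ob jejunum, while miR-451a and both miR-144 arms were at 0 in both ob/ob libraries. The endothelial list summed to 523 CPM in ob/ob colon and 441 CPM in ob/ob jejunum. Neuron and glia markers summed to 523 CPM in ob/ob colon and 498 CPM in ob/ob jejunum, and endocrine markers to 1949 CPM in ob/ob colon and 1971 CPM in ob/ob jejunum. The liver miRNA miR-122-5p had 9 counts in ob/ob colon and 10 in ob/ob jejunum, and the 2 stratified epithelium markers summed to 34.6 CPM in ob/ob colon and 47.4 CPM in ob/ob jejunum. The 2 pancreatic acinar entries had 0 counts in ob/ob colon and 1 in ob/ob jejunum.

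**Figure D3:**
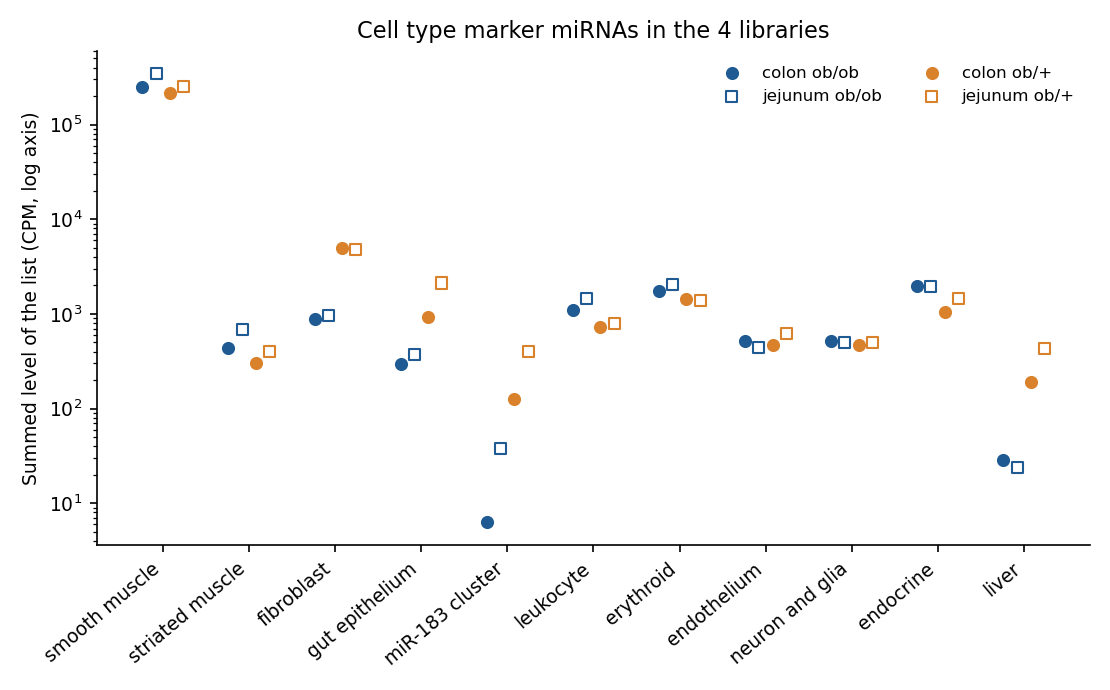
Summed CPM (y, log axis) of the cell type marker lists in the 4 libraries, with colon as filled circles and jejunum as open squares, ob/ob left of ob/+ in each list. Smooth muscle miRNAs lie far above the other lists, and the gut epithelium, miR-183 cluster and fibroblast sums are lowest in ob/ob colon.

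The remaining lists had medians from -0.35 to 0.54 in ob/ob. Of all 32 lists with a tested member, 14 had a median that changed sign with the scaling. The miR-26 list, growth-restraining miRNAs of differentiated cells, had a median of -0.08 over 3 arms in ob/ob, or 0.21 with library totals alone, and 0.38 in ob/+. The X-linked miR-322/miR-450 cluster had a median of -0.10 over 9 arms, or 0.19 with library totals alone, and 0.58 in ob/+. The miR-23/27/24 clusters had a median of -0.22 over 8 arms, or 0.06, and 0.33 in ob/+. The miR-30 list (10 arms, -0.15) and the miR-15/16 list (4 arms, -0.18) turned to 0.14 and 0.10 with library totals alone.

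The Dlk1-Dio3 region, an imprinted locus with many miRNAs, had 39 arms tested, 19 with ratios above 0 and 20 below (median -0.01, or 0.26 with library totals alone). Its 2 most abundant arms in ob/ob were miR-541-5p, with 1127 counts in ob/ob colon and 1711 in ob/ob jejunum (-0.19), and miR-127-3p, with 716 in ob/ob colon and 872 in ob/ob jejunum (0.12). Lists with medians above 0 under every scaling included miR-29 (0.24 over 5 arms) and miR-34 with miR-449 (0.52 over 3), in which 0 intervals excluded equality. The Sfmbt2 list, with 4 arms tested of 41 entries, had a median of 0.54 in ob/ob and -0.32 in ob/+. The full let-7 list (15 arms, 0.02) and the miR-17-92 list (8 arms, 0.06) had medians near 0. The miR-140 with miR-455 list (4 arms, -0.03) and the miR-99/100 with miR-125 list (8 arms, -0.13) turned to 0.23 and 0.15 with library totals alone. The inflammation and stress list had a median of -0.35, or -0.06 with library totals alone, and the insulin and lipid metabolism list one of -0.24, or 0.05 with library totals alone. In the metabolism list miR-378a-3p, carried by Ppargc1b, had 753 counts in ob/ob colon and 1183 in ob/ob jejunum (-0.24).

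**Figure D4:**
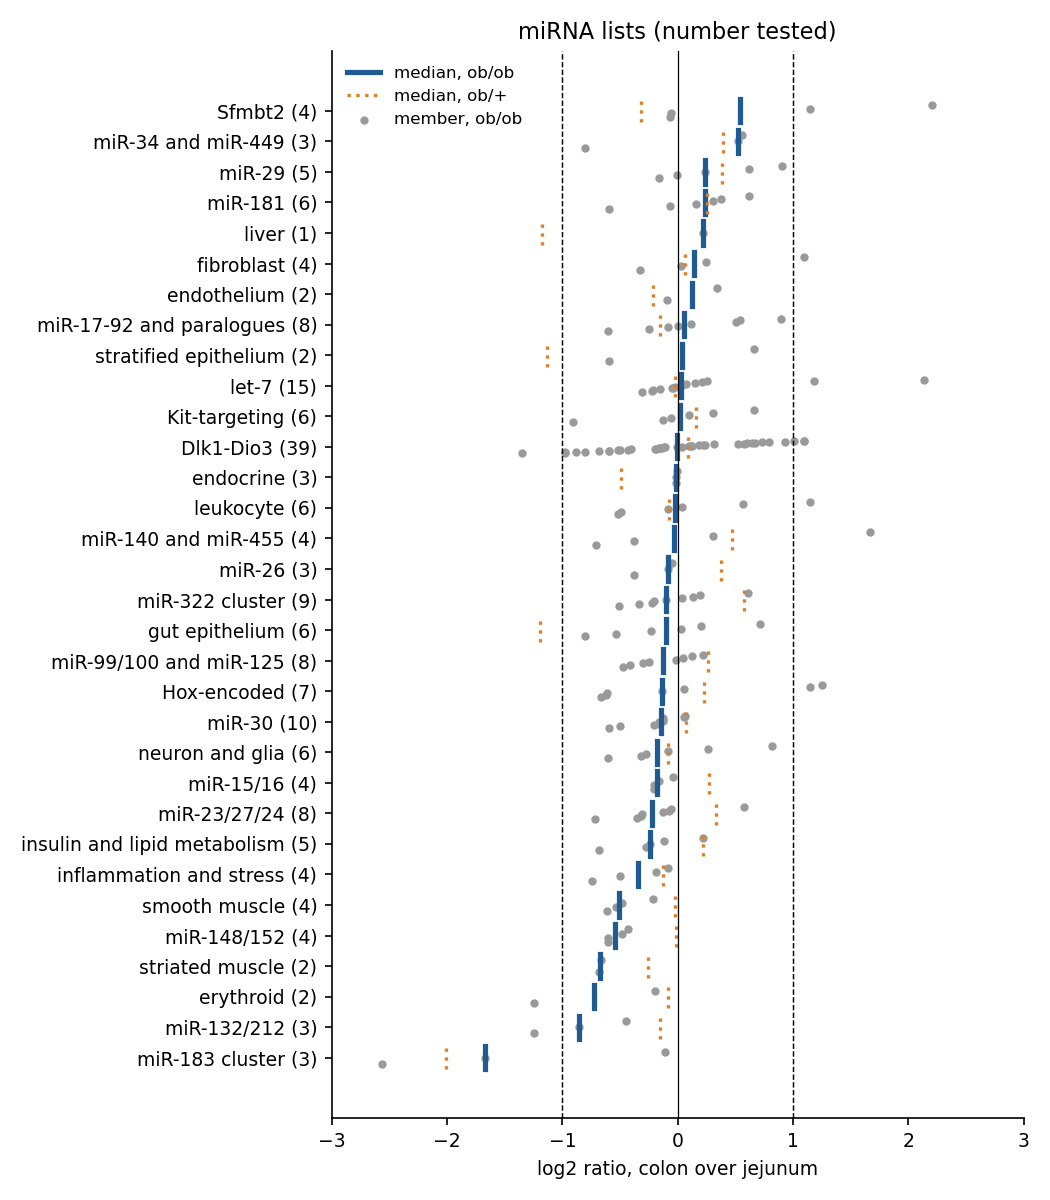
Log2 ratio of colon over jejunum (x) for each miRNA list (y, number of tested arms in brackets), with ob/ob members as points, the ob/ob median as a solid bar and the ob/+ median as a dotted bar; dashed lines mark 2-fold. In ob/ob the median of every list but the miR-183 cluster lies within 2-fold, and the gut epithelium list lies at -0.10 in ob/ob (0.14 with library totals alone) and -1.20 in ob/+.

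The ob/+ pair, which shares no library with the ob/ob pair, shows how far the tissue ratio was repeated. In ob/+ colon 12 of 322 entries (3.73%) were at least 2-fold higher and 26 (8.07%) at least 2-fold lower than in ob/+ jejunum. Of the 16 higher entries of ob/ob, 2 were among the 12 of ob/+ (12.5% of the first list and 16.7% of the second), and 11 had an ob/+ ratio above 0, as did 54.0% of all 322. Of the 9 lower entries, 2 were among the 26 (22.2% and 7.69%), miR-96-5p and miR-6538, and 6 had an ob/+ ratio below 0, as did 46.0% of all 322. The 2 higher in both, let-7f-1-3p and miR-467b-5p, passed the abundance filter mainly through colon, and miR-96-5p mainly through ob/+ jejunum. These overlaps are therefore not independent of the filter. None of the 322 entries was 2-fold different in opposite directions.

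In ob/+ 8 intervals lay wholly beyond 2-fold, all lower in colon, against 0 in ob/ob. In those 8, the epithelial miR-200b-3p had an ob/ob ratio of 0.71 and the endocrine miR-375-3p one near equality (interval -2.78 to 2.56), with 3 counts in ob/ob colon and 4 in ob/ob jejunum against 20 in ob/+ colon and 51 in ob/+ jejunum. miR-3963 had 62 counts in ob/ob colon and 74 in ob/ob jejunum (0.15), against 15 in ob/+ colon and 38 in ob/+ jejunum (-1.75). Across the 322 entries the ob/ob and ob/+ ratios showed no relation (Spearman rho = -0.02, Pearson r = 0.04), and at 100 CPM or more rho was 0.09 and r 0.11. Of the entries beyond equality under all scalings, 8 of 14 on the lower side were also below 0 in ob/+, and 9 of 15 on the higher side were also above 0, against the 46.0% and 54.0% of all 322 entries on those sides.

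**Figure D5:**
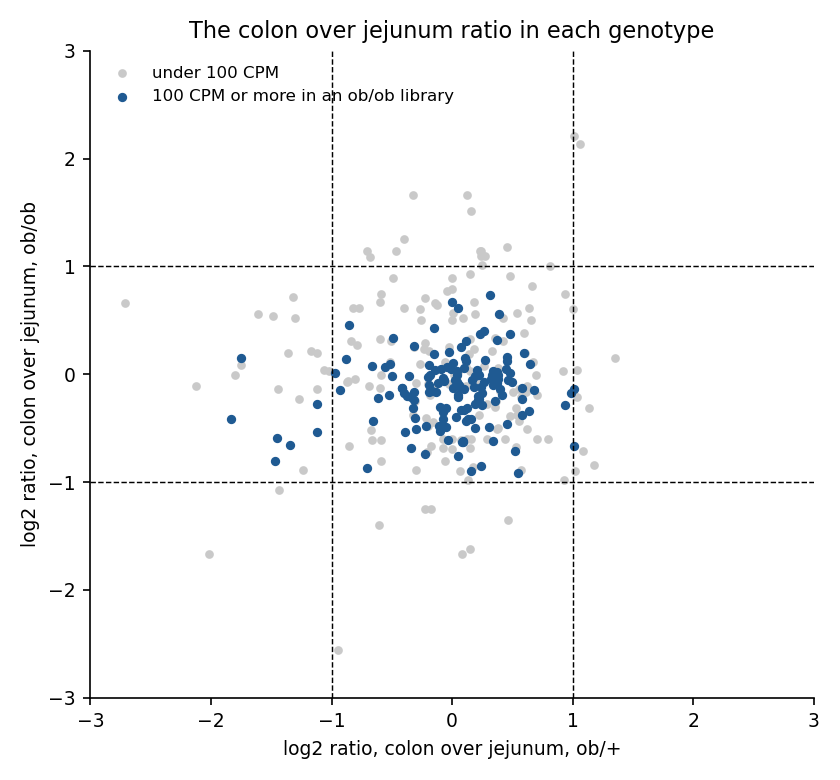
Log2 ratio of colon over jejunum in ob/ob (y) against the same ratio in ob/+ (x) for the 322 entries, with those at 100 CPM or more in an ob/ob library in dark colour and dashed lines at 2-fold. The dark points stay within 2-fold in ob/ob and reach to -1.83 in ob/+. That point is miR-760-5p, with 11 counts in ob/+ colon and 31 in ob/+ jejunum. Dark points were chosen by ob/ob level only, so the ob/+ spread is not matched for abundance.

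The one test of tissue that the design allows pools both genotypes, with genotype as a term and 1 residual degree of freedom. edgeR's quasi-likelihood test called 0 of 322 entries (0%) at an adjusted p of 0.05, the smallest adjusted p being 0.888; 14 had an unadjusted p under 0.05, 1 higher and 13 lower in colon. DESeq2 and limma-voom also called 0, with 7 and 14 unadjusted. miR-365-3p had a tissue log2 change of -0.79 ± 0.20 (SE; unadjusted p = 0.0127 in edgeR, adjusted p = 0.888) and was lower in colon in 2 of 2 pairs. miR-145a-5p had -0.46 ± 0.12 (unadjusted p = 0.0142 in edgeR) and was also lower in 2 of 2 pairs. miR-96-5p and miR-183-5p, with the smallest unadjusted p (0.00764 and 0.0120 in edgeR), were at 0 and 2 counts in ob/ob colon. With median-of-ratios factors, the authors' factors or no hairpin entries these 2 passed as lower in colon (adjusted p = 0.0297, 0.0379 and 0.0191 in edgeR). Both passed the abundance filter mainly through ob/+ jejunum, with 38 counts there for miR-96-5p and 76 for miR-183-5p. In ob/ob alone both intervals included equality. miR-183-5p had a ratio of -0.11 (interval -3.76 to 2.95), and the upper limit for miR-96-5p was 1.01. Whether the tissue difference itself differed between ob/ob and ob/+ cannot be tested with 1 library a group.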

How the data were processed

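Small RNA libraries of sorted Kit-positive ICC were analysed from the authors' deposited workbook. Adapter trimming, a minimum read length of 15 nt and mapping to mm9 and miRBase 20 were done by the authors, per the file headers. Aligner and counting program: not given in the sources used here. In the authors' table raw values are estimated counts, of which 87.7% to 89.8% per library are whole (within 1e-06); all were rounded to whole numbers. The authors' deposited normalized signal equals the raw counts times 1 factor per library (1.45 in ob/ob colon, 1.00 in ob/ob jejunum, 0.661 in ob/+ colon, 1.05 in ob/+ jejunum). Read numbers per step, values of another kind, come from the deposited statistics. The table says small intestine where the labels say jejunum.

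Of the 982 entries, 104 are named as hairpins, and the 322 averaging 10 CPM or more were kept. Ratios used TMM factors (1.19 in ob/ob colon, 0.973 in ob/ob jejunum, 0.920 in ob/+ colon, 0.940 in ob/+ jejunum), a prior count of 2 and exact conditional binomial 95% intervals without a prior count. Intervals and floors (3 counts per library) ignore all but counting error, and reads lacking molecular identifiers are not independent molecules. The tissue effect was tested with edgeR 4.0.16 (quasi-likelihood, genotype as a term, Benjamini-Hochberg over the 322, prior degrees of freedom 3.85, biological coefficient of variation 17.3%), limma 3.58.1 and DESeq2 1.42.0 in R 4.3.3; tables used Python 3.11.15, pandas 2.3.3 and scipy 1.17.1. With genotype as a term, its 1 residual degree of freedom holds how far the tissue ratio differed between ob/ob and ob/+. Its p-values therefore do not measure the spread between pools of the same tissue and genotype. The SE is the log2 change over the square root of the F statistic. On simulated counts the test found 2 of 31 entries with a 2-fold change, 13 of 19 with 4-fold and 19 of 21 with 8-fold. There were 313 entries tested and 0 false calls. The simulated counts had no genotype difference and the same coefficient of variation for every entry. These data held genotype differences, so the numbers do not give the test's power here.

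The comparison, the 33 lists and the rule for named miRNAs were chosen with earlier results of these data known. The rule names the most abundant entries, the largest 2-fold ratios at 100 CPM or more, the smallest p per direction, up to 4 abundant members per list 2-fold entries of opposite direction in ob/+ and those nearest the threshold; other names were chosen after their values were seen. Alternatives were 5 other scalings, 2 other filters, a prior count of 0.5 or 5, a threshold of 1.5-fold or 4-fold, leaving out hairpin entries, no genotype term, DESeq2, limma-voom and leaving out each library; the counts of intervals under every scaling and the arm shares were added after seeing the data. Sequences and their positions come from RefSeq, and host genes from a GENCODE annotation, both on GRCm38.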

Additional observations from a re-analysis of the deposited data

Results flagged for a closer look

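Opposite signs were found for 5 of the 322 entries, whose colon over jejunum ratios differed in sign between ob/ob and ob/+ with both counting intervals off equality and the 2 log2 ratios at least 1 apart, each group being 1 pooled library. In all, 19 of the 322 entries had opposite signs with both intervals off equality. With library totals alone the ob/ob intervals off equality changed from 15 higher and 52 lower to 62 higher and 14 lower, so the 19 may change with the scaling. None of the differences between genotypes was tested, and in ob/ob the intervals of miR-221-5p, miR-140-3p and miR-335-5p included equality with library totals alone. miR-196a-5p had a log2 ratio of 1.25 in ob/ob (27 counts in colon, 14 in jejunum) and -0.40 in ob/+ (416 in colon, 365 in jejunum). miR-221-5p had -0.91 in ob/ob (27 in colon, 69 in jejunum) and 0.55 in ob/+ (201 in colon, 91 in jejunum), and miR-140-3p, encoded within Wwp2, had -0.71 in ob/ob (50 in colon, 110 in jejunum) and 0.52 in ob/+ (295 in colon, 136 in jejunum). miR-335-5p, carried by the imprinted Mest gene, had -0.28 in ob/ob (264 in colon, 426 in jejunum; 0.01 with library totals alone) and 0.94 in ob/+ (1254 in colon, 434 in jejunum). The hairpin-named mir-3535 had 0.46 in ob/ob (153 in colon, 147 in jejunum) and -0.86 in ob/+ (119 in colon, 145 in jejunum).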

How the results depend on the processing

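The count of entries at least 2-fold higher in ob/ob colon, 16, became 25 with library totals alone and 59 with no abundance filter. It became 2 at a 100 CPM filter, 4 at a prior count of 5, 41 at 1.5-fold and 2 at 4-fold. That filter is a mean over all libraries. The 2 entries at it, miR-196a-5p and miR-196b-5p, passed through their ob/+ levels and were under 100 CPM in both ob/ob libraries. The count lower, 9, became 69 with no filter, 0 at 100 CPM, 17 and 4 at prior counts of 0.5 and 5, 56 at 1.5-fold and 1 at 4-fold. Higher in both genotypes, 2, became 1 with library totals, median-of-ratios factors, the authors' factors, TMM from the ob/ob pair or no hairpin entries, 0 at 100 CPM, a prior count of 5 or 4-fold, and 7 at 1.5-fold. Lower in both, 2, became 1 with library totals or mappable reads, 7 with no filter, 4 at a prior count of 0.5, 13 at 1.5-fold, and 0 at 100 CPM, a prior count of 5 or 4-fold. In edgeR's tissue test 0 were higher under every alternative run; 2 were lower with median-of-ratios factors, the authors' factors or no hairpin entries, and 0 to 0 with 1 library left out and no genotype term. The cause of these shifts was not tested. Ratios of the 135 named or 2-fold entries gave 1184 values under the alternatives that stayed within the main interval. Another 111 moved beyond it and 0 reversed a called direction, but this 0 does not count changes of sign. With library totals alone let-7a-5p moved from -0.15 to 0.14, let-7g-5p from -0.21 to 0.08 and miR-145a-3p from -0.21 to 0.08. For the list medians the numbers within, beyond and reversed were 239, 78 and 0, and that 0 does not count changes of sign either. Of the 32 lists with a tested member, 14 had a median that changed sign under a scaling. Ratios within ob/ob have no value without a library. The tissue test sets colon against jejunum within each genotype. No paired analysis was possible because the libraries carry no shared replicate numbers, beyond that genotype term.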
